A study of Homo sapiens with 8 samples.

Results

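The 41 genes described here are ATF4 and genes known as parts or targets of its amino acid response, together with 12 cytosolic aminoacyl-tRNA synthetases. They were picked by name out of 57992 genes in the Molm13 table, and all 41 also had a row in the THP1 table. By role they were 7 regulators, 13 amino acid and one-carbon enzymes, 7 amino acid transporters, 2 secreted or receptor genes (STC2 and VLDLR) and the 12 synthetases. The list was drawn up when the effects of PRMT9 knockdown on some of these genes in Molm13 were already known, so their values under knockdown are given as a description and carry no test.

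PolyA RNA-seq was performed on Molm13 and THP1, which are established human acute myeloid leukemia (AML) cell lines. Each line carried a control hairpin (shCtrl, genotype labeled WT) or hairpin knockdown of PRMT9 (shPRMT9, labeled PRMT9 knockdown), and every library came from doxycycline-induced cells, controls included. There were 2 libraries per group and 8 in all. The study also numbers its PRMT9 hairpins 1 and 2, and the labels do not say whether the shPRMT9 libraries of a line carry the same hairpin or 1 each. They were treated as 2 libraries of a group, so their SD and SE may include a difference between hairpins. Nothing in the labels says that they came from separate cultures, so errors and p-values measure only the spread between these libraries. PRMT9, an arginine methyltransferase, had 332 and 289 counts with shCtrl and 41 and 56 with shPRMT9 in Molm13, and 317 and 352 against 60 and 68 in THP1.

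Library totals lay between 18720950 and 27356870 counts. Of 13 myeloid markers fixed for the check, 12 had at least 10 counts in both libraries of each Molm13 group and all 13 did in each THP1 group. T-cell and erythroid marker lists summed to at most 1.75 CPM (counts scaled by the normalized library size) in any library. B-cell markers summed to between 39.4 and 42.8 CPM in Molm13 and, in THP1, to at most 4.64 CPM with shCtrl and at least 12.6 CPM with shPRMT9. The myeloid markers summed to between 3130 and 3150 CPM with shCtrl and between 3960 and 3990 CPM with shPRMT9 in Molm13, and in THP1 to at most 4440 and at least 5280 CPM. The markers went both ways, since 9 of 13 were higher and 4 lower with shPRMT9 in Molm13, and 7 higher and 6 lower in THP1. LYZ, the lysozyme gene, went from 1880 to 3080 CPM in THP1, and the other 12 together from 2490 to 2260 CPM. In Molm13 LYZ went from 633 to 1000 CPM and the other 12 from 2510 to 2980 CPM. Whether these shifts have a part in the values below was not tested, and in bulk RNA fewer cells of a type and less RNA per cell cannot be told apart. The column names of the THP1 table also carry the letters OCI, which the labels do not explain. A list of 3 MLL fusion targets (HOXA9, HOXA10 and MEIS1) was fixed for the same check. All 3 had at least 10 counts in both libraries of each Molm13 group, and 2 did in each THP1 group. MEIS1 had 1452 and 1483 counts in Molm13 shCtrl. In THP1 it had 7 and 4 with shCtrl and 8 and 9 with shPRMT9. The cause was not tested.

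ATF4 is a bZIP transcription factor whose translation increases when the initiation factor eIF2 is phosphorylated, for example on amino acid shortage or stress in the endoplasmic reticulum. It binds, often with C/EBP proteins, to a composite element in the promoters of genes that make, import and load amino acids. Aminoacyl-tRNA synthetases join each amino acid to its tRNA, and many of their cytosolic forms are known targets of this response. Leukemia cells depend on amino acid supply to different degrees, and asparagine depletion is a long-used therapy of acute lymphoblastic leukemia.

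A search of the RefSeq promoters on GRCh38.p14 (250 bases before to 50 after each transcript start) for the C/EBP-ATF response element, spelled TGATGNAA on either strand, found it in 14 of the 32 members with an entry. The background was 4.46% of the 27305 genes with an entry, or 3.62% of 35116 promoters. Members were picked as known parts or targets of the ATF4 response, so a share above this background was built into the list. Nothing is read from it. The 9 members without an entry were NUPR1, PSPH, SHMT2, ALDH1L2, PYCR1, GPT2, SLC7A11, LARS and YARS. The matches of 5 members from other roles and of all 7 synthetases that had one follow, because the call in Molm13 is set against them later. Each is printed 5′ to 3′ on the gene's own strand with the match in capitals, so that a match on the opposite strand reads TTNCATCA.
CHAC1, chr15:40953252-40953279, plus strand: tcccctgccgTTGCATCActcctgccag
ATF3, chr1:212565206-212565233, plus strand: aaggtcaggaTGATGGAAggctgtcata
ASNS, chr7:97872459-97872486, minus strand: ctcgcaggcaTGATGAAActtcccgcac
SLC7A1, chr13:29595664-29595691, minus strand: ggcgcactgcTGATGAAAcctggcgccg
SLC3A2, chr11:62881726-62881748, plus strand: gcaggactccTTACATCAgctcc
MARS, chr12:57488054-57488081, plus strand: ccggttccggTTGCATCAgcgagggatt
IARS, chr9:92293693-92293720, minus strand: tttcagcgcgTTGCATCAcctccgtgcg
TARS, chr5:33440957-33440984, plus strand: cgcctttcgaTTGCATCAgctggtccag
CARS, chr11:3057408-3057435, minus strand: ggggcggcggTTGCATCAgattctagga
AARS, chr16:70289676-70289703, minus strand: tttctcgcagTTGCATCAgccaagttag
NARS, chr18:57621805-57621832, minus strand: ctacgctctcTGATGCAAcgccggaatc
GARS, chr7:30594835-30594862, plus strand: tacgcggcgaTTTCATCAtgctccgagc

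Of the 14 matches, 9 had the form TGATGCAA, among them those of 6 of the 7 synthetases shown. The form TGATGAAA was found for ASNS, SLC7A1 and GARS, TGATGGAA for ATF3 and TGATGTAA for SLC3A2. SLC1A5 and SLC1A4 also held TGATGCAA. The match lay 4 bases before the transcript start in MARS, 2 before it in CARS, 2 after it in TARS and 209 before it in CHAC1.

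**Figure D1:**
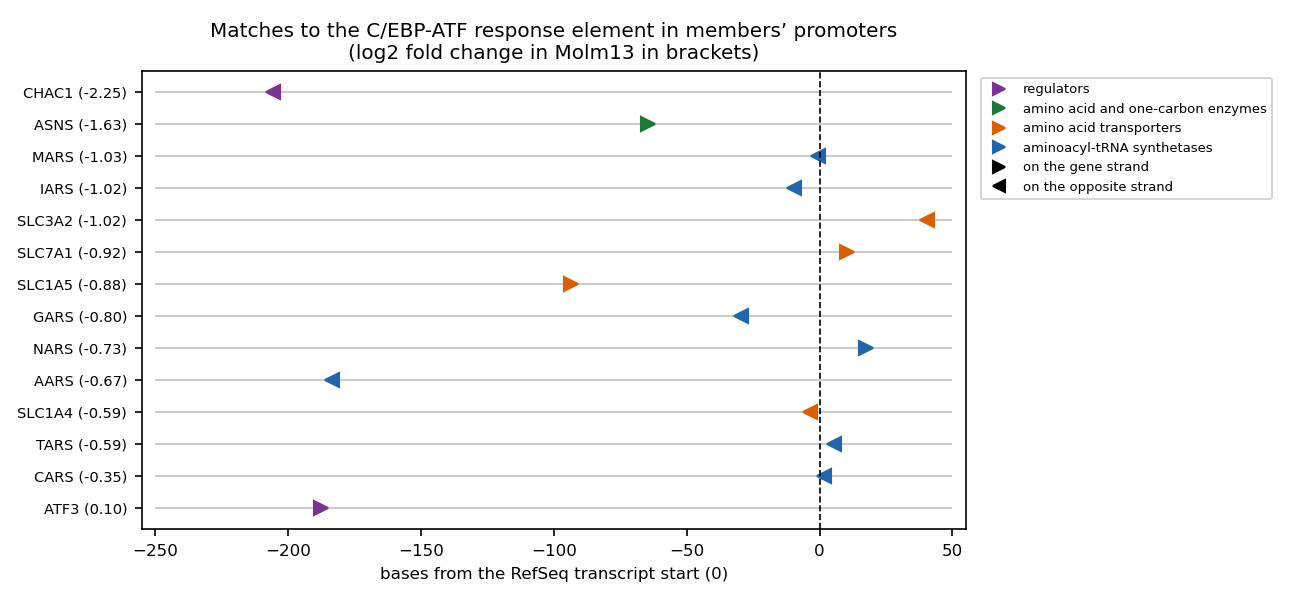
Position of each match to the C/EBP-ATF response element (arrowhead, pointing along the strand of the match) in the 14 members that hold one, with bases from the RefSeq transcript start on the x axis and members ordered by their log2 fold change in Molm13 (in brackets). Most synthetase matches sit close to the start at 0, whereas those of AARS, CHAC1 and ATF3 lie near the upstream end of the window.

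The Molm13 comparison asks which genes change when PRMT9 is lost. Among these 41 genes, 23 met the study's criteria for a lower differentially expressed gene (DEG: FDR below 0.05, fold change beyond 1.5 and more than 1 RPKM, the CPM divided by exon length in kilobases, in at least 1 library), and only DDIT3 met those for a higher one. The same criteria called 11.4% of the 16446 genes tested lower and 11.4% higher (22.8% in either direction). With the FDR limit alone 36 members were lower and 4 higher, against 33.6% and 33.4% of all genes tested. The median log2 fold change of the members was −0.67, beside 0.00 over all genes tested. In 40 of the 41 the libraries of the 2 groups did not overlap, which was so for 81.9% of genes tested, and ATF3 was the exception. Without shCtrl replicate 2 the calls of CHAC1, ALDH18A1, SLC1A4 and TARS were lost and MTHFD2 was called higher. Without shPRMT9 replicate 1 those of ALDH18A1 and TARS were lost and MTHFD2 was gained, and without shPRMT9 replicate 2 those of SLC1A4 and TARS were lost. Since the list was made with falls in this contrast known, nothing is read from these counts.

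**Figure D2:**
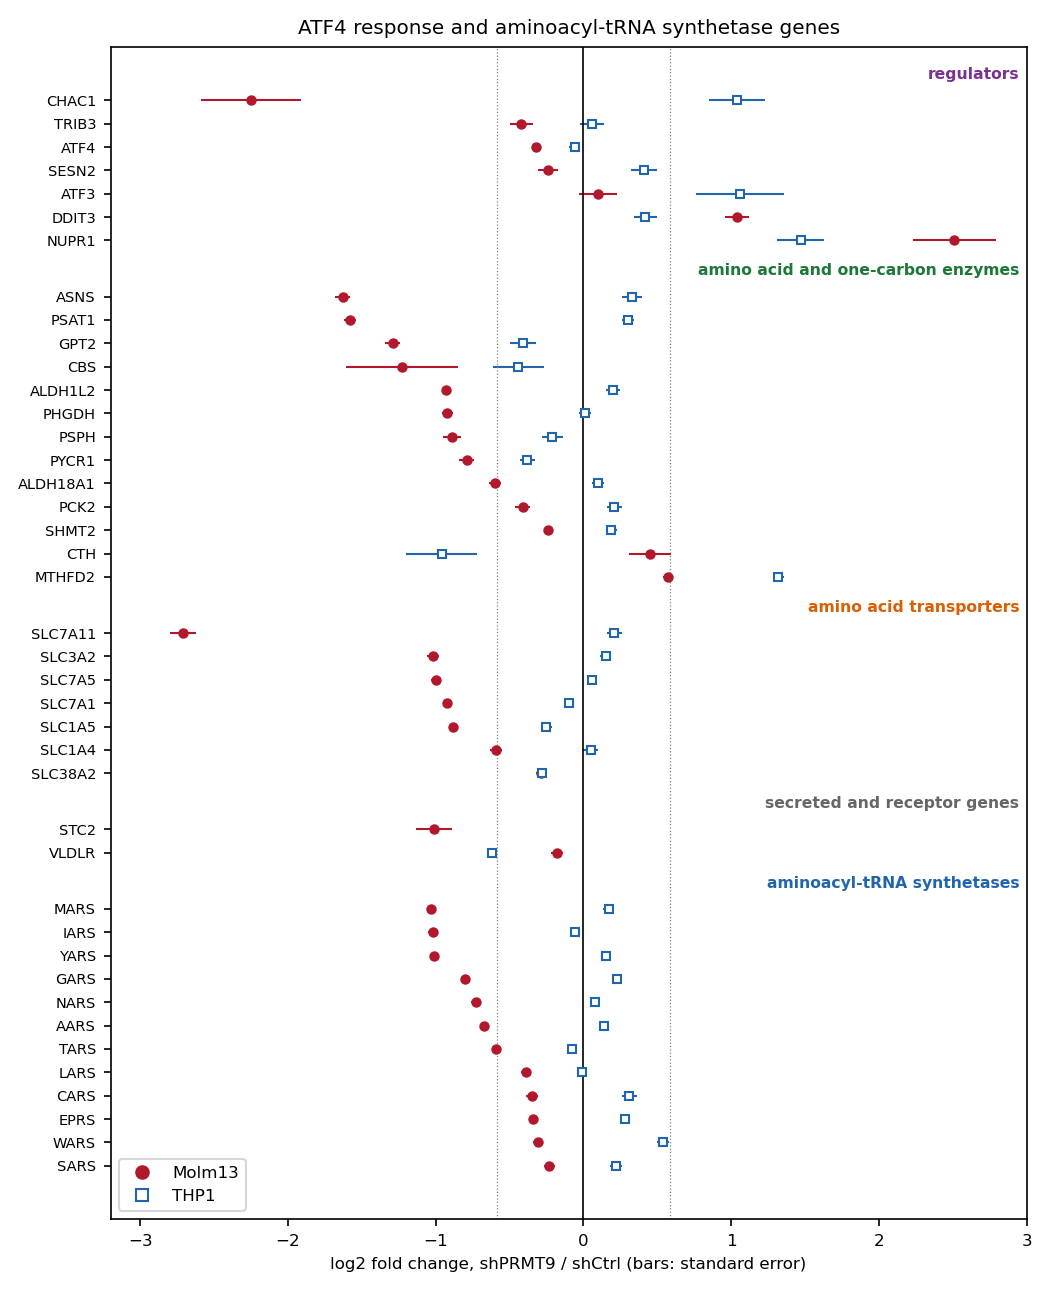
Log2 fold change (shPRMT9 over shCtrl) of each member in Molm13 (filled circles) and THP1 (open squares), with standard errors as bars, grouped by role, and the fold change limit of 1.5 as dotted lines. In Molm13 all transporters and synthetases lie left of 0, while most THP1 values lie between the dotted lines.

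The 7 amino acid transporters were lower in Molm13, with a median of −0.92, and 6 were lower DEGs (11.4% of all genes tested). Counts by role are part of those above, and nothing is read from them. SLC7A11 (chr4:138164097-138242349 on hg38), the cystine and glutamate exchanger, had 818 and 803 counts with shCtrl and 119 and 129 with shPRMT9. Its level was 40.5 ± 0.691 CPM and 6.21 ± 0.212 CPM (SD, n = 2 each), and its log2 fold change of −2.71 ± 0.09 (SE) was the lowest of the 41. SLC3A2, the heavy chain that pairs with SLC7A11 and SLC7A5 at the membrane, had 3520 and 3391 counts against 1629 and 1773, a log2 fold change of −1.02 ± 0.04. SLC7A5, the large neutral amino acid carrier, had 7898 and 7824 against 3676 and 4194 counts. Its level went from 393 ± 9.23 to 197 ± 0.388 CPM (SD, n = 2 each). The cationic amino acid carrier SLC7A1 (−0.92 ± 0.03) and the glutamine carrier SLC1A5 (−0.88 ± 0.03) were also DEGs. SLC1A4, a carrier of alanine, serine and cysteine, was just past the limit at −0.59 ± 0.04. SLC38A2, another neutral amino acid carrier, was at −0.29 ± 0.03 and was not a DEG.

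Of the 13 enzymes, 8 were lower DEGs in Molm13 (11.4% of all genes tested), and the median of the 13 was −0.89. ASNS (chr7:97852118-97872542), which makes asparagine, had 1712 and 1661 counts with shCtrl and 474 and 617 with shPRMT9, so that knockdown left 32.3% of the control level. An annotated gene on the same strand, AC079781.5, shares 1985 of its exon bases but was not among the genes counted in either line. The 3 enzymes of serine synthesis were lower together. PSAT1 (chr9:78297143-78330093) had 4500 and 4327 counts against 1344 and 1615, a log2 fold change of −1.58 ± 0.04, and PHGDH and PSPH were at −0.92 ± 0.04 and −0.89 ± 0.06. GPT2, the mitochondrial alanine transaminase, had 1931 and 1909 against 728 and 842 counts, a log2 fold change of −1.29 ± 0.05. In proline synthesis PYCR1 was at −0.79 ± 0.05 and ALDH18A1 at −0.60 ± 0.04.

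The mitochondrial folate enzymes did not move together in Molm13. ALDH1L2 was a lower DEG at −0.93 ± 0.03 and SHMT2 was at −0.24 ± 0.03. MTHFD2 was above 0 at 0.57 ± 0.03, just inside the fold change limit, with 3550 and 3514 counts with shCtrl and 4869 and 5645 with shPRMT9. PCK2, the mitochondrial PEP carboxykinase, was at −0.41 ± 0.05. CTH, the last enzyme of cysteine synthesis from homocysteine, was at 0.45 ± 0.14. CBS, the enzyme before it, was at −1.23 ± 0.38 on only 24, 21, 8 and 11 counts, stayed under 1 RPKM, and has a near-identical copy, CBSL, between which reads could be split (at most 3 counts per library).

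All 12 synthetases were below 0 in Molm13, between −1.03 and −0.23, and 7 were lower DEGs (11.4% of all genes tested). MARS (chr12:57475445-57517569), which charges methionine, had 7394 and 7232 counts with shCtrl and 3348 and 3840 with shPRMT9. Its level went from 365 ± 5.29 to 180 ± 1.02 CPM (SD, n = 2 each). YARS, for tyrosine, had 5679 and 5340 against 2573 and 2912 counts, and IARS, for isoleucine, was at −1.02 ± 0.03. GARS (−0.80), NARS (−0.73), AARS (−0.67) and TARS (−0.59, just past the limit) were the other lower DEGs. LARS (−0.39), CARS (−0.35), EPRS (−0.34), WARS (−0.31) and SARS (−0.23) were lower by less than the fold change limit, each with an SE of at most 0.04. WARS, the tryptophan enzyme, which is also induced by interferon, had 5670 and 5701 counts against 4320 and 4877.

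The 7 regulators were the least uniform group in Molm13, with a median of −0.24. ATF4 itself (chr22:39519695-39522685) had 5863 and 5688 counts with shCtrl and 4372 and 4877 with shPRMT9, a log2 fold change of −0.32 ± 0.03. RNA level is not a readout of ATF4 protein, which is set mainly by translation. CHAC1, which degrades glutathione, had 41 and 41 counts against 9 and 8, leaving 21.0% of control (log2 −2.25 ± 0.34), and its mean of 0.996 RPKM with shCtrl sat at the RPKM minimum. TRIB3, a pseudokinase that restrains ATF4, was at −0.42 ± 0.08, and SESN2, a leucine sensor of the mTORC1 pathway, at −0.24 ± 0.07 (−0.15 without shPRMT9 replicate 2).

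In the opposite direction, DDIT3 (CHOP), a bZIP factor of the stress response, had 294 and 264 counts with shCtrl and 524 and 624 with shPRMT9, a log2 fold change of 1.04 ± 0.08. Its exons share 355 bases (27.2% of their length) with MARS on the other strand, and the strand setting of the counting is not given in the sources used here. MARS was lower in the same libraries, and its part in the DDIT3 count was not tested. NUPR1, a small stress-induced chromatin protein, had 11 and 16 counts against 86 and 69 (log2 2.51 ± 0.28) but stayed under 1 RPKM and was therefore not a DEG. ATF3, a bZIP factor induced by stress, was at 0.10 ± 0.13 with overlapping libraries. STC2, a secreted glycoprotein, was a lower DEG at −1.01 ± 0.12, and VLDLR, a lipoprotein receptor, was at −0.18 ± 0.04.

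**Figure D3:**
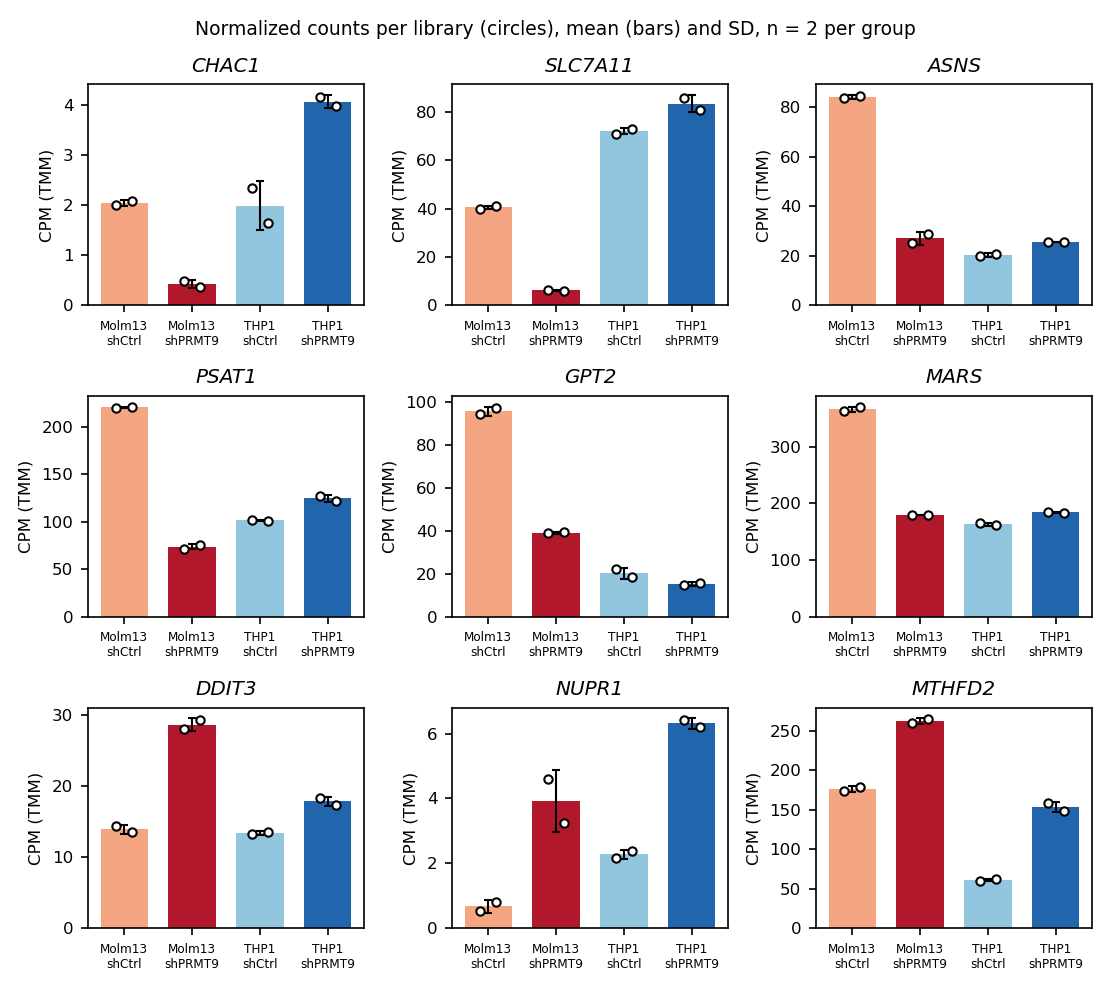
CPM per library (circles) with the mean (bars) and SD of 2 libraries per group for 9 members. The first 6 genes fall from the first to the second bar, and the 3 genes of the bottom row are higher with shPRMT9 in both lines.

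In THP1 the same knockdown was compared with its own control. Of 40 members tested, 2 were lower DEGs (background 2.39% of 16294 genes) and 3 were higher DEGs (background 3.84%, or 6.23% in either direction). The median log2 fold change was 0.15, beside 0.00 over all genes tested. With the FDR limit alone 10 members were lower and 21 higher, against 18.6% and 19.1% of all genes tested, and 36 of the 40 had libraries that did not overlap, against 66.0%. STC2 was not tested in THP1, where it had 5 and 7 counts with shCtrl and 15 and 4 with shPRMT9.

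The 3 higher DEGs of THP1 were 2 regulators and a folate enzyme. MTHFD2 had 1541 and 1735 counts with shCtrl and 3972 and 3702 with shPRMT9, a 2.50-fold higher level (log2 1.32 ± 0.04). NUPR1 had 56 and 66 against 162 and 154 counts (log2 1.47 ± 0.16). CHAC1 had 60 and 46 against 105 and 99 counts (log2 1.04 ± 0.19), so it was a lower DEG in one line and a higher one in the other. ATF3 had 23 and 19 against 47 and 35 counts (log2 1.06 ± 0.30) and stayed under 1 RPKM. DDIT3 was at 0.42 ± 0.08 and SESN2 at 0.41 ± 0.09. ATF4 (−0.06 ± 0.04; 3495 and 3821 against 3247 and 3332 counts) and TRIB3 (0.06 ± 0.08) were not past the FDR limit.

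VLDLR and CTH were the lower DEGs of THP1. VLDLR had 6256 and 6898 counts with shCtrl and 4037 and 3993 with shPRMT9 (log2 −0.62 ± 0.03). CTH had 76 and 63 against 32 and 35 counts (log2 −0.96 ± 0.24), and it was not called with DESeq2 or without shCtrl replicate 1. None of the 7 transporters and none of the 12 synthetases was a DEG, where 6.23% of all genes tested were DEGs. Nothing is read from this. Transporters lay between −0.28 (SLC38A2) and 0.21 (SLC7A11), with SLC1A5 at −0.25, SLC7A1 at −0.10, SLC1A4 at 0.05, SLC7A5 at 0.06 and SLC3A2 at 0.15. The largest value among the synthetases was that of WARS, 0.54 ± 0.04, from 3347 and 3648 against 4740 and 4774 counts. CARS (0.31), EPRS (0.28), GARS (0.23), SARS (0.22), MARS (0.17), YARS (0.15), AARS (0.14) and NARS (0.08) were above 0, and LARS (−0.01), IARS (−0.06) and TARS (−0.08) below it.

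Apart from MTHFD2 and CTH no enzyme was a DEG in THP1, where 6.23% of all genes tested were DEGs. ASNS (0.33 ± 0.07), PSAT1 (0.30 ± 0.04), PCK2 (0.21), ALDH1L2 (0.20), SHMT2 (0.19), ALDH18A1 (0.10) and PHGDH (0.01) were above 0. CBS (−0.44 ± 0.17), GPT2 (−0.41 ± 0.09), PYCR1 (−0.38 ± 0.05) and PSPH (−0.21 ± 0.07) were below it. CBS had 152 and 165 counts with shCtrl and 80 and 138 with shPRMT9, and its value was −0.90 without shPRMT9 replicate 2 and −0.09 without shPRMT9 replicate 1. PSAT1, lower in Molm13, had 2607 and 2810 counts with shCtrl and 3196 and 3039 with shPRMT9 in THP1, and SLC7A11 had 1822 and 2027 against 2167 and 2013.

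A fit of all 8 libraries gave the difference in effect between the lines, THP1 minus Molm13. By an FDR below 0.05 this difference was above 0 in 35 members (22.5% of 19288 genes tested) and below 0 in 4 (18.9%), namely DDIT3, NUPR1, CTH and VLDLR. Part of it was fixed by the way the list was made, so nothing is read from the counts. The median difference was 0.76 on the log2 scale, beside 0.03 over all genes tested. The widest were CHAC1 (3.31 ± 0.40) and SLC7A11 (2.93 ± 0.10), followed by ASNS (1.97 ± 0.09) and PSAT1 (1.89 ± 0.05). Among synthetases the difference ranged from 0.39 ± 0.04 (LARS) to 1.21 ± 0.04 (MARS), and WARS was at 0.86 ± 0.05. CBS (0.80 ± 0.48) and SLC38A2 (0.02 ± 0.04) had no called difference. The line cannot be told apart from the handling of its libraries.

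**Figure D4:**
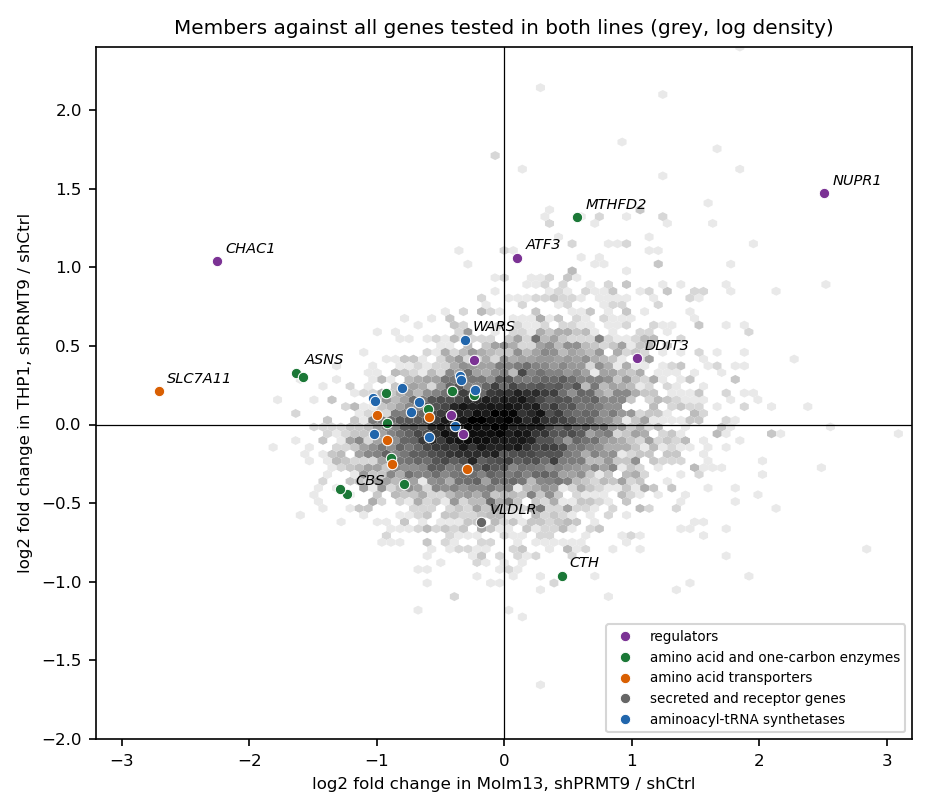
Log2 fold change in THP1 (y axis) against that in Molm13 (x axis) for the 40 members tested in both lines (points colored by role) and for all genes tested in both (grey, darker where genes are denser; a few genes outside the axes are not drawn). Most members sit to the left of 0 on the x axis and near 0 on the y axis, with NUPR1, MTHFD2, DDIT3 and ATF3 at upper right and CHAC1 at upper left.

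The shCtrl libraries alone show the level of these genes without the knockdown, a comparison the choice of members did not use, although the same controls enter both contrasts above. By edgeR's quasi-likelihood test (FDR below 0.05 and fold change above 1.5) 22 members were lower in THP1 than in Molm13 and 4 were higher, beside 31.1% and 28.4% of the 19288 genes tested. Here too the line cannot be told apart from the handling of its libraries. The median difference of the members was −0.63, beside −0.03 over all genes tested. Of the 13 enzymes 9 were lower in THP1, as were 8 of the 12 synthetases, but only 1 of the 7 transporters (SLC1A4). ATF4 was lower by 2.10-fold (log2 −1.07 ± 0.03, FDR 7.2e-32 by edgeR's quasi-likelihood test). The differences of GPT2 (−2.24 ± 0.06, 4.72-fold lower in THP1), ASNS (−2.05 ± 0.06) and ALDH1L2 (−1.89 ± 0.04) were wider, and ATF3 (−3.41 ± 0.21) and STC2 (−5.67 ± 0.25) rested on few counts in THP1.

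The 4 members that were higher in THP1 shCtrl were CBS, NUPR1, VLDLR and SLC7A11. SLC7A11 was higher by 1.78-fold (log2 0.83 ± 0.05, FDR 1.1e-19 by edgeR's quasi-likelihood test). Among the 15 members not called, CHAC1 (−0.04 ± 0.23), DDIT3 (−0.06 ± 0.09) and PYCR1 (−0.10 ± 0.05) had the smallest differences. After knockdown ASNS stood at 6.09 RPKM in Molm13, near the 5.75 RPKM of knockdown THP1, while its shCtrl levels were 18.9 and 4.57 RPKM. MARS likewise went from 52.0 to 25.5 RPKM in Molm13 and from 23.2 to 26.2 RPKM in THP1. This was not general among the lower DEGs of Molm13. With shPRMT9, PSAT1 stood at 33.7 RPKM in Molm13 and 56.9 RPKM in THP1, SLC7A5 at 41.4 and 65.2, and YARS at 16.7 and 28.5. GPT2 stayed higher in Molm13, at 6.17 RPKM against 2.41. SLC7A11 moved away from the THP1 level, with 4.20 and 0.643 RPKM in Molm13 and 7.46 and 8.66 RPKM in THP1.

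Per exon length, EPRS was the most abundant member in shCtrl cells of both lines, with 186 RPKM in Molm13 and 93.4 RPKM in THP1. ATF4 (115 RPKM), TARS (113) and PSAT1 (101) came next in Molm13, and SLC1A5 (69.9 RPKM), SLC7A5 (62.4) and TARS (62.2) in THP1. At the low end, NUPR1 (0.119 RPKM) and CBS (0.166) in Molm13 and STC2 (0.0364) and ATF3 (0.196) in THP1 were far under 1 RPKM.

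**Figure D5:**
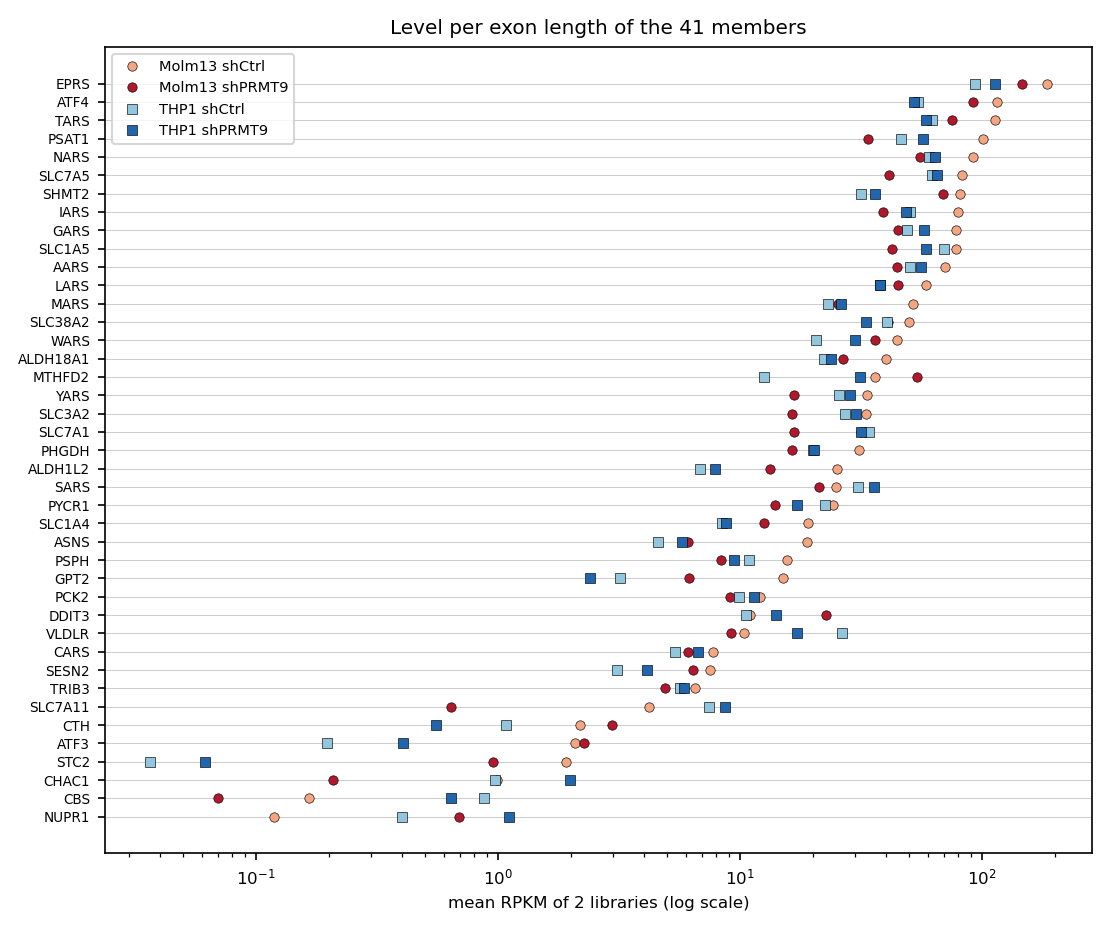
Mean RPKM of 2 libraries (log axis) for the 41 members in the 4 groups, circles for Molm13 and squares for THP1, ordered by the level in Molm13 shCtrl. Many enzymes and synthetases have their rightmost point in Molm13 shCtrl, while SLC7A11 and VLDLR have it in THP1.

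Set against the promoter matches printed above, 12 of the 14 members with a C/EBP-ATF response element were lower DEGs in Molm13, with a median log2 fold change of −0.84. Of the 18 members with a promoter entry but no match, 5 were lower DEGs and 1 was higher, with a median of −0.33. Over all genes tested 11.4% were lower DEGs, and because falls in Molm13 were known when the list was made, nothing is read from these counts. Among the synthetases, 6 of the 7 with a match were lower DEGs (CARS was not), and none of the 3 without one was (WARS, SARS and EPRS, between −0.34 and −0.23). ATF3 held a match and was at 0.10. A match names letters in the window and not a bound site, and no match says only that these letters are not there. The 9 members without an entry included the DEGs SLC7A11, GPT2, PSPH, PYCR1, ALDH1L2 and YARS, so the comparison leaves them out.

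The WARS promoters held no such element. A second RefSeq promoter of WARS held a match to the core of the interferon-stimulated response element, GAAANNGAA, at 55 bases before its start, and a match to the gamma-activated site, TTCNNNGAA, at 142 bases before it. These motifs were found in 3 and 4 of the 32 members with an entry and in 9.86% and 9.38% of all genes with one. They are printed for WARS because it had the largest THP1 value of the synthetases, and a link between motif and value was not tested. The other members with the first motif were GARS (0.23 in THP1) and IARS (−0.06). Those with the second were SLC3A2 (0.15), CARS (0.31) and TARS (−0.08).
WARS, interferon-stimulated response element, chr14:100375384-100375412, minus strand: tttcagaaggGAAACTGAAagaaagaggg
WARS, gamma-activated site, chr14:100375471-100375499, minus strand: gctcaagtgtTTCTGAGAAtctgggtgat

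Genes around the response but outside the 41 give the context in each line. For scale, 11.4% of all genes tested were lower DEGs and 11.4% higher in Molm13, and 2.39% and 3.84% in THP1. These lists were also chosen with earlier results known and had no set test, so nothing is read from their counts. Of the 11 other cytosolic synthetase and multisynthetase complex genes, 2 were lower DEGs in Molm13 (EEF1E1, a complex scaffold, at −0.80 ± 0.09, and VARS at −0.63 ± 0.03), with a median of −0.21, and none was a DEG in THP1. None of the 9 with a promoter entry held the C/EBP-ATF response element, and the other lists are set beside this further below. Of the 17 mitochondrial synthetases 1 was a lower DEG in Molm13 (MARS2, −0.81 ± 0.07), with a median of −0.23, and none was a DEG in THP1. The contrast with the 7 of 12 member synthetases was not tested.

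Upstream of ATF4, the 4 kinases that phosphorylate eIF2 did not move alike. EIF2AK2 (PKR), which senses double-stranded RNA and is induced by interferon, was a higher DEG in both lines, at 0.60 ± 0.04 in Molm13 and 1.34 ± 0.03 in THP1. EIF2AK3 (PERK), the kinase of the endoplasmic reticulum, was at −0.37 ± 0.08 and −0.23 ± 0.09. EIF2AK1 (HRI) was at −0.07 ± 0.03 and −0.11 ± 0.03, and EIF2AK4 (GCN2), which senses uncharged tRNA, at 0.05 ± 0.05 and −0.09 ± 0.04. PPP1R15A (GADD34), the inducible phosphatase subunit that reverses the phosphorylation, was a higher DEG in both lines (1.52 ± 0.06 and 0.83 ± 0.07), and the constitutive subunit PPP1R15B was a lower DEG in Molm13 (−1.33 ± 0.04). Over the 15 genes of that list, 2 were lower and 2 higher DEGs in Molm13, beside 11.4% of all genes tested each way. In THP1 2 were higher, beside 3.84%.

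Other ATF4 partners and targets were mixed in Molm13, where 7 of the 20 tested were lower and 5 higher DEGs (22 were listed). Outside PPP1R15A, which this list shares, JDP2, a bZIP repressor, was the DEG with the widest change, at −1.52 ± 0.12. In THP1 1 was lower and 4 were higher, led by BATF2, an interferon-inducible bZIP factor, at 2.74 ± 0.23, and VEGFA, a vascular growth factor, at 0.84 ± 0.07. In the ATF6 and XBP1 branch of the unfolded protein response, 6 of 20 genes were lower DEGs in Molm13 (median −0.37; SDF2L1 at −1.34 ± 0.10 and CRELD2 at −1.23 ± 0.12, both proteins of the endoplasmic reticulum) and none was a DEG in THP1. Among serine, folate and proline enzymes outside the members, 5 of the 10 tested in Molm13 were lower DEGs (TYMS, thymidylate synthase, at −1.14 ± 0.03 and PYCRL, a proline enzyme, at −1.10 ± 0.11) and 1 was higher. None of the 12 tested in THP1 was a DEG.

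SLC7A11 is also a target of NRF2, the factor of the oxidative stress response, and other NRF2 targets were set beside it. In Molm13, 4 of the 12 tested were lower DEGs and 2 were higher, with a median of −0.28. HMOX1, which degrades heme, was at 1.84 ± 0.23 and FTH1, the ferritin heavy chain, at 0.98 ± 0.03. In THP1, 8 of the 13 were higher DEGs and none was lower, with a median of 0.71, led by HMOX1 at 3.48 ± 0.11 and OSGIN1 at 1.37 ± 0.17. SLC7A11 itself, at 0.21 ± 0.05 in THP1, was below the lowest of those 13 values, 0.23. Lower DEGs of Molm13 also occurred in lists without the C/EBP-ATF response element. By genes with a promoter entry, none of 8 serine, folate and proline enzymes held it (2 lower DEGs), nor any of 10 NRF2 targets (4). Of 19 ATF6 and XBP1 genes 1 did, and the 18 others included the 6 lower DEGs. Of 17 other ATF4 partners and targets 5 did, namely 4 lower DEGs and FGF21, which had 0 counts in every library and was not tested. The 12 others included 2 lower DEGs. The element was in 1 of 14 mitochondrial synthetases (YARS2, not a DEG), and the 13 others included 1 lower DEG. Of 13 eIF2 genes 1 held it (PPP1R15B, a lower DEG), and the 12 others included 1 lower DEG. A link was not tested.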

How the data were processed

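PolyA RNA-seq libraries of Molm13 and THP1 with shCtrl or shPRMT9 were analysed (8 libraries, 2 per group). Per the submitters' processing notes the authors used TopHat2 2.0.8, HTSeq 0.11.2, edgeR 3.30.3 and hg38, and they deposited raw counts per gene in 1 table per line. The annotation version and the strand setting of counting are not given in the sources used here, and 39 of the 41 members have the same start and end in GENCODE 29. From the counts on, R 4.3.3 with edgeR 4.0.16 was used (filterByExpr, TMM, quasi-likelihood test, Benjamini-Hochberg adjustment over all genes tested), with each line fitted alone and no replicate block. The study's criteria for a DEG were applied, namely FDR below 0.05, more than 1 RPKM in at least 1 library and a change of over 1.5 times. The SE was taken from the test's F value and the log2 fold change. All 8 libraries were fitted together for the difference between lines and for shCtrl THP1 against shCtrl Molm13. The scripts were tested on simulated data. The groups came from sample titles. Counting error only is covered by the depth of 18720950 to 27356870 counts per library.

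The members, the related lists and the rules were chosen with earlier results of these data known. All 41 members were named. Counts per library were given for ATF4, WARS, the DEGs among the members with the 8 largest absolute log2 fold changes per line, and the 5 whose difference between lines had the lowest FDR. From each related list the DEGs with the 2 largest absolute log2 fold changes per line were named, with the 4 eIF2 kinases. SARS, WARS and the other synthetases were matched to RefSeq under their newer symbols ending in 1. Alternatives were other normalizations, DESeq2 1.42.0, other filters and limits, a replicate block and leaving out each library.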

Additional observations from a re-analysis of the deposited data

Results flagged for a closer look

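The effect of PRMT9 knockdown differed between THP1 and Molm13 (edgeR's quasi-likelihood interaction term over all 8 libraries, FDR below 0.05) in 39 of the 41 members. Over all 19288 genes tested, 22.5% had a called difference above 0 and 18.9% one below 0. Values are log2 differences, THP1 minus Molm13, and since the list was made with the Molm13 values known they are a description.

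Among the regulators the difference was 3.31 for CHAC1, 0.96 for ATF3, 0.67 for SESN2, 0.49 for TRIB3, 0.28 for ATF4, −0.61 for DDIT3 and −1.03 for NUPR1. CHAC1 was lower in both Molm13 shPRMT9 libraries and higher in both THP1 ones. DDIT3 and NUPR1 were above their controls in both lines, and less so in THP1.

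Among the enzymes it was 1.97 for ASNS, 1.89 for PSAT1, 1.15 for ALDH1L2, 0.95 for PHGDH, 0.90 for GPT2, 0.76 for MTHFD2, 0.71 for ALDH18A1, 0.70 for PSPH, 0.63 for PCK2, 0.44 for SHMT2, 0.42 for PYCR1 and −1.39 for CTH. CTH was the only enzyme of the 12 with a value below 0.

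Among the transporters it was 2.93 for SLC7A11, 1.18 for SLC3A2, 1.07 for SLC7A5, 0.83 for SLC7A1, 0.66 for SLC1A4 and 0.65 for SLC1A5. STC2 was at 1.77 on at most 15 counts per THP1 library, and VLDLR at −0.42.

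Among the synthetases it was 1.21 for MARS, 1.17 for YARS, 1.04 for GARS, 0.97 for IARS, 0.86 for WARS, 0.83 for AARS, 0.82 for NARS, 0.67 for CARS, 0.63 for EPRS, 0.52 for TARS, 0.46 for SARS and 0.39 for LARS. All 12 were above 0.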

How the results depend on the processing

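With 2 libraries per group, calls close to a limit moved. In Molm13, 23 lower members became 10 with a fold change limit of 2 and 36 with the FDR alone, and between 19 and 23 when a library was left out. The 1 higher member became 4 with the FDR alone, 2 without the RPKM limit, 2 in one fit of all 8 libraries, and 1 to 2 when a library was left out. All DEGs of Molm13 went from 3747 to 1300 with a limit of 2 and 11018 with the FDR alone (3625 to 3755 when a library was left out). In THP1, 2 lower members became 1 with DESeq2, 0 with a limit of 2, 10 with the FDR alone and 1 to 2 when a library was left out, and 3 higher became 21 with the FDR alone. All DEGs of THP1 went from 1015 to 400 with a limit of 2, 6138 with the FDR alone and 1559 without the RPKM limit.

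Values that changed sign were close to 0. ATF3 in Molm13 lay between −0.087 and 0.312 when a library was left out, below 0 without shCtrl replicate 1 (−0.033) or shPRMT9 replicate 1. In THP1 PHGDH was −0.012 with library size alone and between −0.048 (without shCtrl replicate 2) and 0.072 when a library was left out, and LARS was between −0.021 and 0.001 (without shCtrl replicate 2). The difference between lines of SLC38A2 was −0.006 with RLE, −0.025 with library size alone, −0.003 with DESeq2 and between −0.042 and 0.014 when a library was left out. CHAC1 in the shCtrl comparison was between −0.283 and 0.205, the latter without THP1 shCtrl replicate 2. The differences between lines of ATF3, NUPR1 and STC2 lost their call when one of several libraries was left out, STC2 falling to 0.53 without THP1 shPRMT9 replicate 1. The cause was not tested.

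Replicate numbers did not pair the libraries, since deviations of same-numbered libraries correlated at −0.087 in Molm13 and −0.0146 in THP1. With a replicate block Molm13 had 23 lower and 1 higher member and 3723 DEGs, and THP1 had 2 lower and 3 higher members and 1024 DEGs. The block left the DEG calls of the members as they were. By the FDR limit alone it changed 1 member, TARS in THP1 (−0.082), which no longer met that limit.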
